A study of Mus musculus with 6 samples.

Results

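Heparan sulfate is a sulfated sugar chain carried by a small set of core proteins, and 37 genes for its synthesis, sulfation, desulfation, cleavage and carriers were followed in tongue epithelium with and without Ire1α. The genes were taken by symbol, and all 37 were found among the 55421 genes of the deposited table. The study's 6 libraries were made by 3'-end sequencing of polyadenylated RNA (QuantSeq), 1 from each of 6 mice. In 3 mice (KO, K14CreERT2 IRE1 F/F) floxed alleles of the Ire1α gene were combined with a Cre recombinase that tamoxifen activates and the keratin 14 promoter drives, so that deletion was aimed at basal keratinocytes and the cells they give rise to. The 3 littermates (WT, IRE1F/F) carried the same floxed alleles without Cre. All 6 mice were injected with tamoxifen daily for 4 days and harvested on day 5, so the drug was common to both groups while Cre was present in KO alone. The mucosa was loosened with protease and collagenase for 10 minutes and peeled from the tongue. Values below are normalised read counts, in which 1 read was worth 0.862 to 1.31, and are given for KO replicates 1 to 3 and WT replicates 1 to 3 in that order, or as mean ± SD with n = 3 mice. The genes were grouped by function, but the group was proposed because Sulf2 and Hs3st5 differed between KO and WT in these libraries. The differences of those genes are therefore given as a description without a p-value, and no other count below supports the choice.

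As background, a heparan sulfate chain starts on a serine of a core protein, where a short linkage sugar is built, and is then extended by the EXT polymerases with alternating glucuronic acid and N-acetylglucosamine. Enzymes in the Golgi remove acetyl groups and add sulfate to nitrogen, turn some glucuronic acid into iduronic acid, and add sulfate at further positions of the sugars. Outside the cell the SULF enzymes take sulfate off again and heparanase cuts the chain. In stratified epithelium the chains on syndecans and glypicans bind growth factors of the FGF, EGF, WNT and BMP families and hold them near their receptors.

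Ern1, the gene for Ire1α, had 78.0, 117 and 123 in KO and 102, 105 and 77.1 in WT, but a 3'-end tag reports only the end of a transcript and the labels do not name the deleted exons, so this checks nothing. Libraries held 4606309 to 6286153 reads and Spearman correlations between replicates of a group were 0.944 to 0.969 over tested genes. Between KO and WT libraries they were 0.916 to 0.963, so the ranges overlapped. The keratinocyte label fitted its markers, since the suprabasal markers summed to 507388 to 752635 in KO and 494657 to 713824 in WT, although 1 of the 8, Sbsn, was listed at 0 in every library. KO replicate 1 stood apart. Its 9 skeletal muscle markers summed to 1997, against 91.4 and 403 in the other KO libraries and 122 to 298 in WT, and its 5 nerve and glia markers to 43.3, against 2.61 to 6.89 in the other 5 libraries. Its mast cell markers summed to 53.1, against 6.67 and 7.76 in the other KO libraries and 8.73 to 27.3 in WT. The 10 fibroblast markers summed to 255 to 1145 in KO and 1406 to 1894 in WT, a sum that was mostly Dcn in WT; Dcn was lower in KO by the test. Without Dcn they summed to 615 in KO replicate 1 and 60.3 and 63.8 in the other KO libraries, against 37.9 to 76.8 in WT. The 7 basal keratinocyte markers summed to 36389 to 63175 in KO and 25654 to 27832 in WT, with Itgb4 higher by the test and Krt15 and Trp63 of negative sign. Krt14 was the largest part of that sum, with 23878 to 40922 in KO and 13185 to 15244 in WT. DESeq2 called 4 of the 7 higher (Krt14, Krt5, Itga6 and Itgb4) and 1 lower (Krt15), beside 1.97% and 1.38% of all tested genes. The 7 endothelium markers summed to 77.2 to 134 in KO and 50.9 to 77.7 in WT, the 7 leukocyte markers to 194 to 314 in KO and 193 to 234 in WT, and the 4 melanocyte markers to 25.9 to 52.0 in KO and 11.3 to 19.6 in WT. Mlana had 26.0, 15.5 and 18.1 in KO and 0, 0 and 1.31 in WT and was called higher in KO by the test. It reached the level for testing, at least 10 in at least 3 libraries, through KO alone, so nothing is read from that call. Without Mlana the melanocyte sums overlapped, at 9.53 to 26.0 in KO and 11.3 to 18.3 in WT. Taste bud and salivary gland markers, 5 each, did not exceed a sum of 10.5 in any library. In tissue RNA, fewer cells of a type and less RNA per cell cannot be told apart, and the part of these shifts in the results below was not tested.

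The genes spanned a wide range of levels. A 3'-end library gives about 1 tag per transcript, so values were not divided by transcript length. Sdc1, the main syndecan of stratified epithelia, Ndst1, an enzyme that removes acetyl groups and adds N-sulfate, and Sdc4, another syndecan, were the highest. By mean level over all libraries they ranked 851, 985 and 1184 among the 21778 genes above 0. Sdc1 had 923, 919 and 704 in KO and 619, 733 and 673 in WT. Ndst1 had 727, 533 and 818 in KO and 609, 617 and 724 in WT. Sdc4 had 559, 597 and 456 in KO and 623, 639 and 436 in WT. The ranges of these 3 genes ran into one another, so their order was not fixed. Ndst1 made up 88.2% to 93.2% of the summed Ndst reads in KO and 90.1% to 92.2% in WT. At the low end Hs3st2 and Gpc2 were listed at 0 in every library, where a count of 0 leaves room for 3 reads (2.59 to 3.92 as normalised read count) by counting error alone. Gpc2 shares 2376 exonic bases on the same strand, its 3' end included, with another annotated gene (Gm43720), which was also listed at 0, so its 0 cannot be told apart from reads left uncounted as ambiguous. Ndst3, Ndst4, Hs6st2, Sulf1, Gpc1 and Sdc3 did not exceed 12.4 in any library. These 8 genes did not pass the filter of at least 10 in at least 3 libraries, and 29 did. Replicates of those 29 had a median coefficient of variation of 20.8% in KO and 24.6% in WT, beside 19.3% and 20.2% over all 10987 genes tested.

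**Figure D1:**
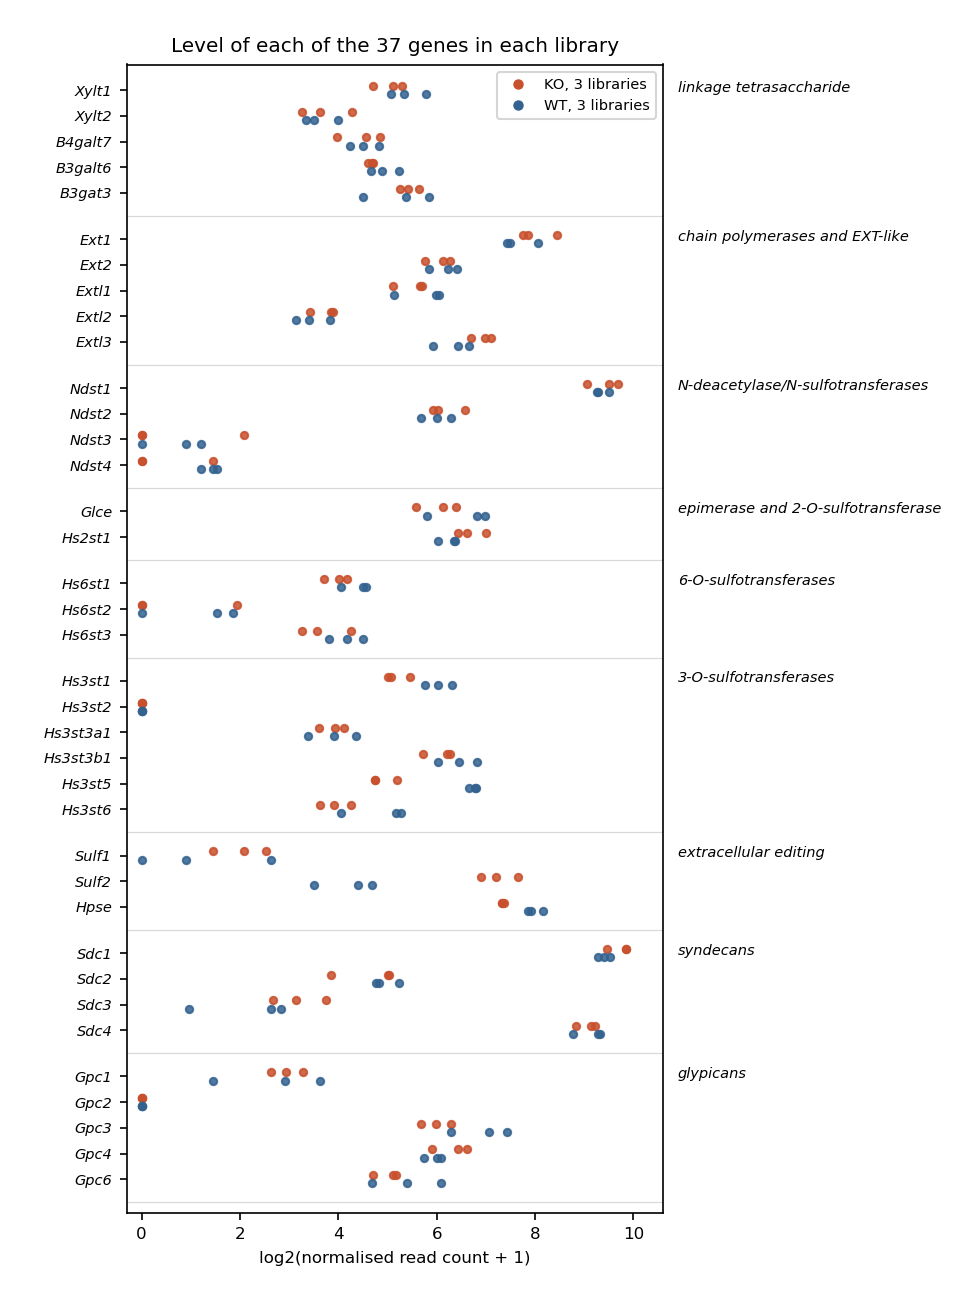
Level of each of the 37 genes by role, as log2(normalised read count + 1), with 1 point per library and KO plotted above WT for each gene. Sdc1, Ndst1 and Sdc4 lie highest in both groups, Hs3st2 and Gpc2 lie at 0, and Sulf2 and Hs3st5 show the widest separation between KO and WT.

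In KO epithelium Sulf2 was 8.43-fold higher and Hs3st5 was 3.66-fold lower than in WT, and the other 27 tested genes did not pass the test. Genes were compared by limma on log2(value + 1) with adjustment over all 10987 genes at 0.05. By that test 1 of the 29 was higher in KO, where 1.22% of all tested genes were, and 1 was lower, where 0.583% were. Because these are the genes for which the group was proposed, nothing is read from those counts. The same 2 genes were called by edgeR (1.14% of all genes higher and 0.592% lower) and by DESeq2 (1.97% and 1.38%). They are also the 2 of the 37 that stand in the authors' deposited table of 341 genes, with a log2 fold change of 3.10 for Sulf2 and -1.86 for Hs3st5 in that table. The median log2 fold change of the 29 was -0.11, beside -0.01 over all tested genes, with 12 positive and 17 negative. The KO and WT libraries did not overlap for 7 of the 29. In 3 of these KO lay above WT, as in 9.84% of all tested genes, and in 4 KO lay below WT, as in 9.25%.

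**Figure D2:**
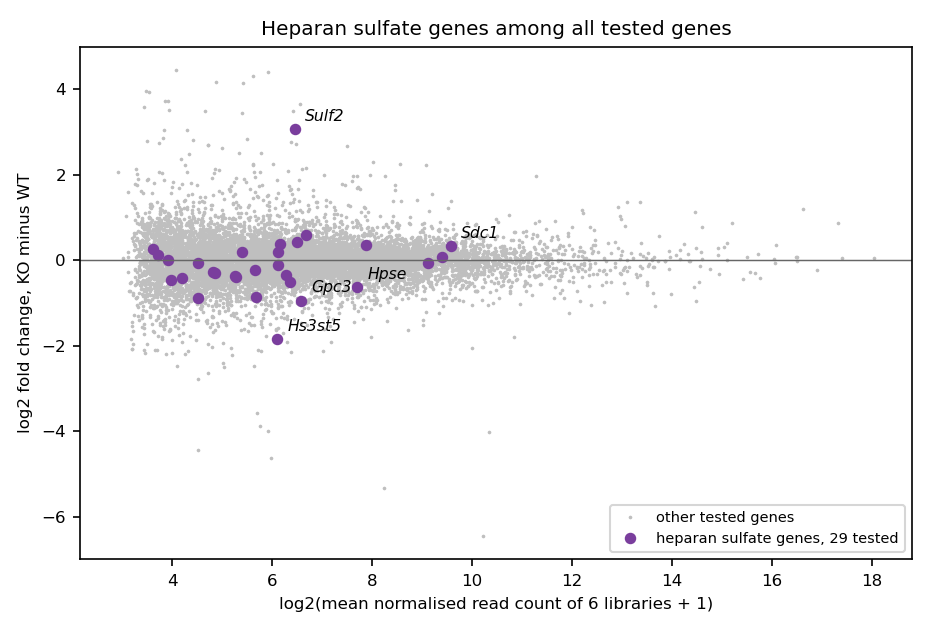
Log2 fold change, KO minus WT, against mean level for all 10987 tested genes (grey) and the 29 tested heparan sulfate genes (purple). Sulf2 at 3.06 and Hs3st5 at -1.85 lie farthest from 0 among the 29 and the other 27 lie between -0.95 and 0.59.

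Sulf2, an extracellular sulfatase that removes sulfate from the 6 position of glucosamine in finished heparan sulfate chains, had 199, 147 and 119 in KO and 10.4, 20.1 and 24.8 in WT (ENSMUSG00000006800; minus strand of chromosome 2 from 166073089 to 166155663 in GRCm38). The lowest KO library was several times the highest WT library. The means were 155 ± 40.7 in KO and 18.4 ± 7.36 in WT, and the log2 fold change was 3.06 ± 0.33 (SE), rank 16 from the highest of all tested genes. Behind these values stood 184, 171 and 125 reads in KO and 11, 23 and 19 reads in WT, so the WT level rests on few reads. The log2 difference was 2.86 without KO replicate 1, the library with high muscle and nerve markers. The last exon of Sulf2 shares 154 bases with that of Ncoa3 on the opposite strand, and whether reads were counted by strand is not given here. Ncoa3, a nuclear receptor coactivator, had 155, 158 and 148 in KO and 173, 191 and 149 in WT, with the groups overlapping and no KO library above the highest WT library.

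Sulf1, the other extracellular 6-O-sulfatase, was near the floor, with 3.25, 1.72 and 4.76 in KO and 0, 0.873 and 5.22 in WT, or 0 to 5 reads a library. Hpse encodes heparanase, the enzyme that cuts heparan sulfate chains. Its values were 165, 160.3 and 160.1 in KO and 287, 232 and 240.3 in WT. Every KO library lay below every WT library and the KO libraries were nearly equal. Reads numbered 152, 186 and 168 in KO and 304, 266 and 184 in WT. At such numbers counting error alone is larger than the spread seen in KO, so nothing is read from that evenness. The means were 162 ± 2.59 in KO and 253 ± 29.3 in WT, with a log2 fold change of -0.64 ± 0.17 (SE). This missed the threshold (limma adjusted p = 0.109, edgeR 0.09998, DESeq2 0.101). It passed with a weight per library (limma adjusted p = 0.0349), as did Gpc3, Hs3st6 and Hs3st5, a fit in which 2.48% of all tested genes were lower in KO. Hpse made up 44.8%, 51.8% and 56.4% of the summed reads of Sulf1, Sulf2 and Hpse in KO and 96.5%, 91.7% and 88.9% in WT.

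Hs3st5 belongs to the 3-O-sulfotransferases, which add the last and rarest sulfate of the chain; its human counterpart makes chains that bind antithrombin and a herpesvirus glycoprotein. Hs3st5 had 26.0, 35.3 and 25.7 in KO and 109, 99.5 and 109.7 in WT (ENSMUSG00000044499; plus strand of chromosome 10 from 36506814 to 36834397 in GRCm38). The groups were far apart and each was tight. The means were 29.02 ± 5.47 in KO and 106 ± 5.80 in WT, and the log2 fold change was -1.85 ± 0.23 (SE). Without KO replicate 1 it was -1.78. Reads numbered 24, 41 and 27 in KO and 116, 114 and 84 in WT, and no other annotated gene shares exonic bases with Hs3st5.

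The transcription start regions of Sulf2 and Hs3st5 are shown because these genes carry the difference between KO and WT. The sequences are from RefSeq (GRCm38.p6), run 5' to 3' over 300 bases around an annotated start, and are in lower case with any ACGTG, on either strand, in capitals. ACGTG is the core of the elements that XBP1, the transcription factor made active by Ire1α, is known to bind.
Sulf2, chr2:166155236-166155535, minus strand: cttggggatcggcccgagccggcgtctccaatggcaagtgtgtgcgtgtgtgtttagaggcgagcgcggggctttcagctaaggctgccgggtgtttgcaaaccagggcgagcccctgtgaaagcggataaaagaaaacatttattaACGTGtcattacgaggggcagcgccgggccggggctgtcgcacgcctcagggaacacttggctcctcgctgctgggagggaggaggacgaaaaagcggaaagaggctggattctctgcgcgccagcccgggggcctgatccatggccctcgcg
Sulf2, chr2:166155634-166155933, minus strand: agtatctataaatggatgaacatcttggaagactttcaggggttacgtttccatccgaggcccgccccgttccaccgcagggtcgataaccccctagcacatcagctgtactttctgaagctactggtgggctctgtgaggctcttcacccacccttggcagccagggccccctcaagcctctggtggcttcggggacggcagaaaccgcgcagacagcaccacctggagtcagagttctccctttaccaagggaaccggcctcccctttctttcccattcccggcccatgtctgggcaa
Hs3st5, chr10:36506557-36506856, plus strand: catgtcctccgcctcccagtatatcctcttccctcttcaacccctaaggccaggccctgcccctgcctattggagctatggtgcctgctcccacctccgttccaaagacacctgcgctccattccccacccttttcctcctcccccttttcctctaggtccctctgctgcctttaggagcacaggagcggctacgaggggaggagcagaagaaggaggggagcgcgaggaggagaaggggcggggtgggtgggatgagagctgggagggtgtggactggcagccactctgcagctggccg

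Of these regions, the 1 at the inner of both annotated Sulf2 starts held ACGTG, at position -103 from the start, and the others held none. This core was searched for after the longer elements gave no match, and it is common: it stood in 19.6% of 32851 promoters and in 7 of the 31 promoters of the 27 genes that matched the table by symbol (22.6%). The longer elements TGACGTG and the ER stress response element (ERSE), searched on both strands, stood in 0 of those 31 promoters, beside 2.01% and 0.119% of all promoters. The full p53 response element without a spacer stood in 0 of the 31 and in 3 of the 32851. The Hs3st5 region held 9 CpG dinucleotides and the Sulf2 regions 26 and 12, beside a median of 23 over the 31 promoters and 7 over all promoters. A match in letters is a description, and none of these windows was tested for binding.

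Among the other 3-O-sulfotransferases, Hs3st1 also lay lower in KO without passing. Hs3st1, known for making the antithrombin-binding site, had 32.5, 31.0 and 42.9 in KO and 64.1, 78.5 and 53.5 in WT. The groups did not overlap, and the log2 fold change was -0.86 ± 0.25 (SE, limma adjusted p = 0.137). Hs3st6 had 14.1, 18.1 and 11.4 in KO and 34.9, 37.5 and 15.7 in WT. WT replicate 3 lay among the KO libraries, and the log2 fold change was -0.90 ± 0.39 (SE, limma adjusted p = 0.361). Hs3st3b1 had 52.0, 75.8 and 73.4 in KO and 111, 86.4 and 64.0 in WT, which overlapped, and Hs3st3a1 had 11.2 to 16.3 in KO and 9.42 to 19.6 in WT. Hs3st3a1 and Hs3st3b1 encode enzymes with nearly identical catalytic domains. Whether their 3' ends, which the tags report, are also alike was not examined. The sources used here do not say how any reads that fit both were counted.

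The 6 genes of this family summed to 141, 172 and 168 in KO and 329, 316 and 263 in WT. Hs3st5 made up 18.5%, 20.6% and 15.3% of that sum in KO and 33.2%, 31.5% and 41.8% in WT. Without Hs3st5 the sum was 115, 136 and 142 in KO and 220, 216 and 153 in WT, so the groups also did not overlap for the remaining genes together. This is given as a description, because single genes among them did not pass by limma without weights, edgeR or DESeq2. Of these genes Hs3st6 alone passed with a weight per library. Hs3st3b1 was the highest member in KO in each library, while Hs3st5 was about level with it in WT replicate 1 and above it in WT replicates 2 and 3.

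**Figure D3:**
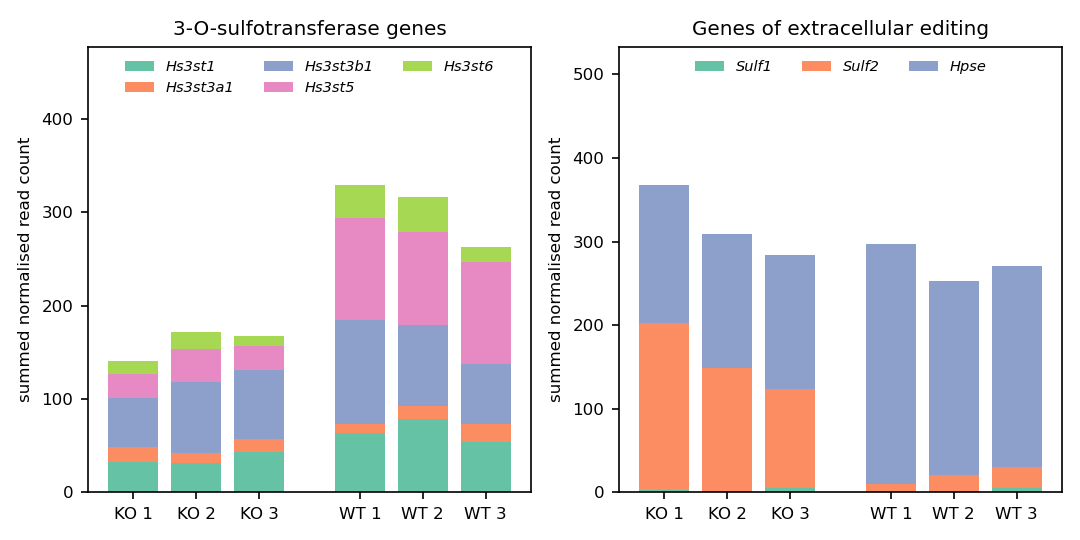
Summed normalised read counts per library of the 3-O-sulfotransferase genes (left) and of the genes of extracellular editing (right), with 1 bar per library and 1 colour per gene (Hs3st2, listed at 0, is not drawn). The 3-O sums are 141 to 172 in KO and 263 to 329 in WT, and Sulf2 fills a large part of the editing sum in KO alone.

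The genes that build the chain gave no call. The linkage sugar is made by xylosyltransferases (Xylt1, Xylt2), galactosyltransferases (B4galt7, B3galt6) and a glucuronosyltransferase (B3gat3). Their sum was 140, 117 and 144 in KO and 145, 137 and 154 in WT, and their log2 fold changes ran from -0.37 for Xylt1 to 0.20 for B3gat3. B3gat3 was the highest of these over all libraries by mean level, within its spread of Xylt1, with 48.8, 37.1 and 41.9 in KO and 40.5, 21.8 and 56.2 in WT, all KO values within the WT range.

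Ext1 and Ext2 form the polymerase that extends the chain. Ext1 had 229.7, 349 and 216 in KO and 179, 266 and 172 in WT, a log2 fold change of 0.36 ± 0.24 (SE, limma adjusted p = 0.586) with overlapping groups. Ext2 had 53.4 to 75.8 in KO and 56.7 to 83.9 in WT. Extl3, an EXT-like glycosyltransferase needed to start heparan sulfate chains, had 126, 103 and 136 in KO and 99.9, 85.5 and 60.1 in WT. Its groups did not overlap, although KO replicate 2 was close to WT replicate 1, and its log2 fold change of 0.59 ± 0.24 (SE) did not pass (limma adjusted p = 0.299). Extl1 and Extl2, the remaining EXT-like genes, had log2 fold changes of -0.23 and 0.26.

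Of the enzymes that modify the chain in the Golgi, Ndst1 and Ndst2 had log2 fold changes of 0.07 and 0.20. Glce, the epimerase that makes iduronic acid, had 46.6, 82.7 and 68.6 in KO and 112, 125 and 54.9 in WT. WT replicate 3 was below 2 of the KO libraries, and the log2 fold change was -0.51 ± 0.33 (SE, limma adjusted p = 0.568). Hs2st1, which adds sulfate to iduronic acid, had 97.5, 128 and 84.8 in KO and 82.0, 81.2 and 64.0 in WT. Its groups did not overlap by a narrow margin, with a log2 fold change of 0.43 ± 0.22 (SE, limma adjusted p = 0.449). The 6-O-sulfotransferases add the sulfate that Sulf2 removes, and they were low throughout. Hs6st1 had 15.2, 12.1 and 17.2 in KO and 22.6, 21.8 and 15.7 in WT, and Hs6st3 had 8.58 to 18.1 in KO and 13.1 to 21.7 in WT. Hs6st1 also lies opposite an antisense gene at its 3' end (Gm37335, listed at 0). Both had negative log2 fold changes, of -0.41 and -0.47, with SEs of 0.34 and 0.40, and neither passed.

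**Figure D4:**
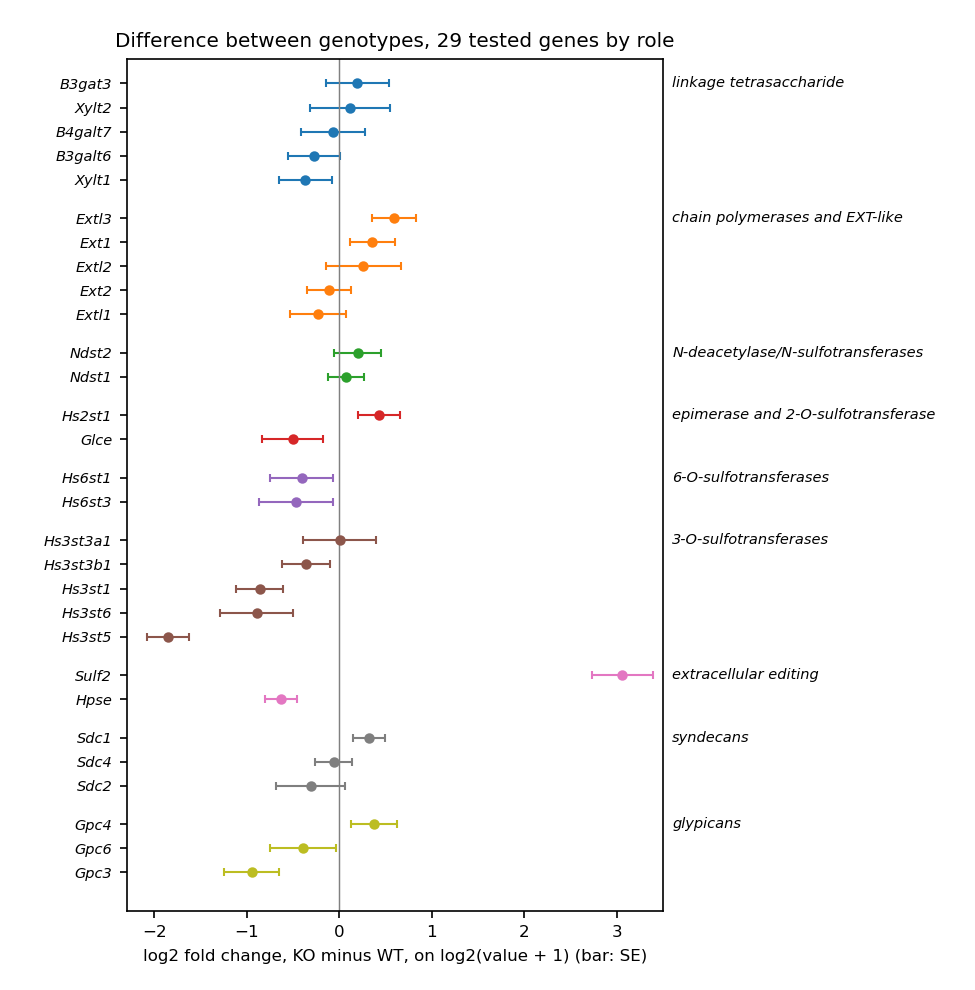
Log2 fold change, KO minus WT, of the 29 tested genes by role, with bars showing the SE of the limma fit. Outside Sulf2 and Hs3st5 the values lie between -0.95 for Gpc3 and 0.59 for Extl3.

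The core proteins that carry the chains gave no call either. Syndecans span the membrane and glypicans are held to it by a lipid anchor. Sdc1 had a log2 fold change of 0.32 ± 0.18 (SE, limma adjusted p = 0.474) and averaged 849 ± 125 in KO and 675 ± 56.9 in WT, with KO replicate 3 inside the WT range. Sdc4 averaged 537 ± 73.3 in KO and 566 ± 113 in WT. Sdc1 made up 60.8%, 59.1% and 59.4% of the summed syndecan reads in KO and 48.4%, 52.2% and 58.9% in WT, a share that was even across KO and uneven across WT. Sdc2 had 13.3 to 31.9 in KO and 26.2 to 36.8 in WT.

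Gpc3, a glypican that dampens hedgehog and growth signals in development, had 76.9, 49.98 and 61.9 in KO and 133, 171 and 77.1 in WT. The groups did not overlap, but KO replicate 1 and WT replicate 3 were almost equal. The log2 fold change was -0.95 ± 0.30 (SE) and did not pass (limma adjusted p = 0.168, edgeR 0.133, DESeq2 0.0564). It passed without WT replicate 3 (limma adjusted p = 0.0416), where 0.483% of all tested genes were lower in KO, and was -0.70 without WT replicate 2. Gpc4 had 58.5, 97.4 and 85.8 in KO and 66.9, 63.7 and 52.2 in WT, and Gpc6 had 24.9 to 35.3 in KO and 24.8 to 66.9 in WT, both with overlapping groups. Gpc1, whose last exon lies opposite that of Ankmy1, had 5.17 to 8.67 in KO and 1.75 to 11.3 in WT.

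**Figure D5:**
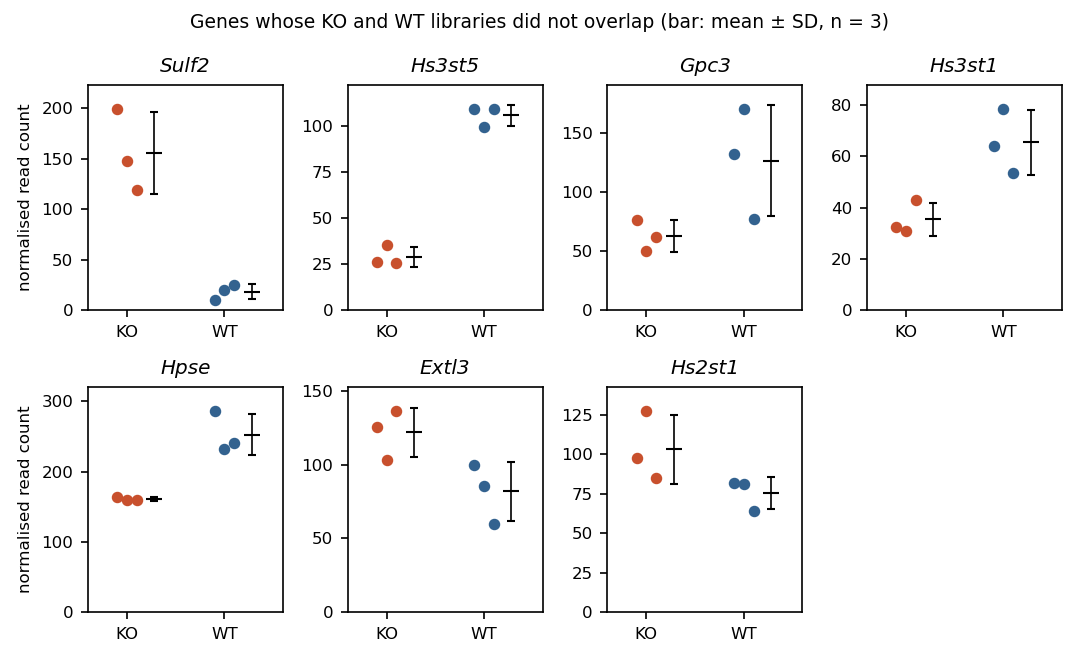
Normalised read counts per library of the 7 tested genes whose KO and WT libraries did not overlap, with the mean ± SD of 3 mice beside the points. KO lies above WT for Sulf2, Extl3 and Hs2st1 and below it for Hs3st5, Gpc3, Hs3st1 and Hpse, and the gap is narrow for Gpc3, Extl3 and Hs2st1.

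The library names have 2 styles, digits (KO replicate 1, WT replicates 1 and 2) and a letter (KO replicates 2 and 3, WT replicate 3), and the labels do not say what the style means. The difference between styles, which was not used to choose the genes, was tested with genotype in the same fit. In that test 0 of the 29 genes passed with limma, 0 with edgeR and 0 with DESeq2, where limma called 0% of all tested genes. At an unadjusted p under 0.05 there was 1, Gpc3, lower by 0.71 on the log2 scale in libraries named with a letter (limma adjusted p = 0.975), where 4.4% of all tested genes were under 0.05. The log2 difference between KO and WT within each style was 3.69 (digits) and 2.37 (letter) for Sulf2 and -1.96 and -1.83 for Hs3st5. It was -0.64 and -0.58 for Hpse, -1.10 and -0.54 for Hs3st1, -0.96 and -0.46 for Gpc3, 0.44 and 0.97 for Extl3, and 0.26 and 0.69 for Hs2st1. Because the KO and WT libraries of these 7 genes do not overlap, the sign within each style was fixed, and only the sizes are informative. Among tested genes whose groups overlap, the sign changed between styles in most, and in both directions. Glce had -1.33 (digits) and 0.45 (letter), Hs3st3b1 had -0.90 and 0.22, and Gpc6 had -1.04 and 0.46. B3gat3 had 0.69 and -0.50, Ndst2 had 0.74 and -0.30, and Hs3st3a1 had 0.47 and -0.59. Others kept their sign, such as Sdc1 with 0.45 and 0.26. These genes are examples picked after the values were seen. Each within-style value sets 1 library of a genotype against 2 of the other and has no test.

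Genes around the pathway were read from 7 lists with 91 genes, of which 69 were tested. Of these 2 were higher in KO and 0 lower by limma, beside the 1.22% and 0.583% of all tested genes given above. In the lists for other carriers of the chain (8 tested), supply of sugar and sulfate donors (13), lysosomal breakdown (10), chondroitin and dermatan sulfate (10) and hyaluronan (4), 0 genes passed with limma, edgeR or DESeq2. At an unadjusted limma p under 0.05 these lists held 1, 1, 0, 3 and 1 genes, where 13.5% of all tested genes were under 0.05. The 3 chondroitin and dermatan sulfate genes include Chpf, which reached the level for testing through KO alone. Their median log2 fold changes were -0.16, -0.01, 0.06, 0.21 and 0.26.

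The genes that passed were in the lists of heparan sulfate-binding ligands (1 of 13 tested) and of FGF receptors and their feedback targets (1 of 11). Etv4, an ETS transcription factor induced by FGF and ERK signalling, rose, with 75.8, 44.8 and 54.3 in KO and 12.3, 17.5 and 17.0 in WT. The log2 fold change was 1.82 ± 0.30 (SE, limma adjusted p = 0.0139). It did not pass without KO replicate 1 (limma adjusted p = 0.0776) or without KO replicate 3 (0.0751). Hbegf, a heparin-binding ligand of the EGF receptor, rose, with 608, 661 and 709 in KO and 377, 376 and 413 in WT (log2 fold change 0.76 ± 0.16 (SE), limma adjusted p = 0.0420). Of the 6 fits that leave out 1 library it passed without WT replicate 3 alone (highest limma adjusted p = 0.197).

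DESeq2 called 5 of the 69 higher and 1 lower, beside 1.97% and 1.38% of all tested genes, and so added 4 genes to Etv4 and Hbegf. Dusp6, a phosphatase that limits ERK, had 117, 229 and 101 in KO and 73.5, 75.9 and 32.6 in WT (DESeq2 adjusted p = 0.0220, limma 0.137). Areg, the EGF receptor ligand amphiregulin, had 98.6, 140 and 100.1 in KO and 72.6, 41.9 and 50.9 in WT (DESeq2 adjusted p = 0.0363, limma 0.0838, limma with a weight per library 0.0336). Cxcl14, a chemokine of epithelia, had 238, 270 and 260.2 in KO and 49.9, 170.2 and 136 in WT (DESeq2 adjusted p = 0.0370, limma 0.134). Vegfa, the vascular growth factor, had 17.3, 19.8 and 26.7 in KO and 37.7, 54.1 and 62.7 in WT (DESeq2 adjusted p = 0.0471, limma 0.0775). KO and WT did not overlap for any of these 4, which were picked by their DESeq2 call. Among the 69, KO lay above WT without overlap for 14 and below it for 6, where 9.84% and 9.25% of all tested genes did. Limma with a weight per library also called Chpf, a chondroitin polymerase, higher in KO by 1.98 on the log2 scale (limma adjusted p = 0.0390), in a fit that called 2.89% of all tested genes higher. Chpf had 15.2, 10.3 and 18.1 in KO and 1.88, 3.49 and 9.14 in WT, the latter from 2, 4 and 7 reads. It passed the filter of at least 10 in at least 3 libraries through KO alone, so nothing is read from that call. Chpf is also among the 14 genes with KO above WT, and nothing is read from its place there. The receptor Fgfr2 had 445 to 528 in KO and 509 to 732 in WT. Of the feedback inhibitors, Spry1 had 33.4 to 54.3 in KO and 34.9 to 60.3 in WT. Spry2 had 55.3 to 68.9 and 70.5 to 89.0, and Spred2 39.0 to 64.6 and 66.6 to 96.1, with KO below WT. Etv5, another feedback target, had 45.7 to 54.2 in KO and 22.6 to 31.4 in WT. None of these passed by any tool. Of the 11 tested genes in this list, 5 had positive and 6 negative log2 fold changes. KO lay above WT without overlap for 3 and below it for 2, beside the same 9.84% and 9.25%. Of the FGF ligands in the ligand list, Fgf22 had 424, 558 and 545 in KO and 653, 483 and 739 in WT. Its groups overlapped (limma adjusted p = 0.612). Fgf10 had 0 to 3.25 in KO and 0 to 3.77 in WT, and Fgf18 had 0.953 to 14.1 in KO and 0.873 to 1.31 in WT. Fgf1, Fgf2 and Fgf7 were listed at 0 in every library.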

How the data were processed

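Tongue epithelium of 3 KO and 3 WT mice was profiled with a QuantSeq 3' mRNA kit, per the labels. The authors deposited a table of normalised read counts, a linear signal, for 55421 genes and a second file of 341 genes. Per the file headers, the authors give there a log2 fold change, a Wald statistic (a score), a p-value and a q-value for each gene. Per the submitters' processing notes, the tools were FastQC, STAR, featureCounts and DESeq2, with no version recorded. Genome build, annotation, strand setting and the handling of reads that fit several genes were not given in the sources used here.

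Columns were matched to mice by library name, with 0 left over. All values were whole multiples of 1 step per library (100% within 0.01 of a whole read), so reads were recovered. PCR copies were not removed, so floors cover counting error only. The 3192 rows without a symbol were kept under their identifier.

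The KO and WT libraries were compared in limma 3.58.1 (R 4.3.3) with an intensity trend on log2(value + 1), over the 10987 genes with at least 10 in at least 3 libraries, two-sided, with Benjamini-Hochberg adjustment at 0.05. Fold changes on that scale understate low genes. edgeR 4.0.16 and DESeq2 1.42.0 were run on the recovered reads. Each library is 1 mouse, and KO and WT were littermates, per the labels. The genes and lists were chosen with earlier results of these data known. Of the 37 genes, values in every library are given for Sulf2, Hs3st5, genes called by any tool, the highest gene of each role and genes whose groups do not overlap. Of the pathway genes they are given for those called by any tool. Sdc4, Glce, Hs3st6, Gpc4, Sulf1, Dusp6, Areg, Cxcl14, Vegfa, Chpf and the FGF ligands were added after their values were seen. So were Fgfr2, Spry1, Spry2, Spred2 and Etv5, which are given by range. Positions are from GENCODE M21 (GRCm38) by gene identifier, and promoters from RefSeq (GRCm38.p6), in which 10 of the 37 genes had no entry.

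Replicate numbers were not taken to pair mice. Alternatives were other pseudocounts (0.5 and 4), no filter, a filter at 50, equal totals, a weight per library, name style as a covariate, a replicate block, edgeR, DESeq2 and leaving out each library.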

Additional observations from a re-analysis of the deposited data

How the results depend on the processing

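The count of genes higher in KO (1, Sulf2) was 1 under every alternative run. The count of genes lower in KO (1, Hs3st5) was 4 with a weight per library, and between 1 and 2 when 1 library was left out, 2 without WT replicate 3 (Gpc3 and Hs3st5). The log2 fold change ran from 2.71 to 3.30 for Sulf2 and from -1.995 to -1.75 for Hs3st5 over 16 alternatives. The group was proposed for these 2 genes, so their calls and ranges are a description and no support. For 13 named genes of the group, 201 of 206 values under another setting kept their direction and their side of the threshold. That count includes Sulf2 and Hs3st5, for which the group was proposed. No filter, a filter at 50 and the replicate block cannot change a log2 fold change, so the direction was fixed under them. For the 7 genes whose groups do not overlap, leaving out a library cannot turn the direction. The 2 that reversed had p far from the threshold: B3gat3 was -0.17 without WT replicate 2 (-0.17 to 0.49 when 1 library was left out) and Ndst1 was -0.058 without KO replicate 3 (-0.058 to 0.25). The cause was not tested.

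With a replicate block the counts stayed at 1 higher and 1 lower. Each replicate number holds 1 KO and 1 WT library, so the block cannot change a log2 fold change and moves p alone. The values of 3.06 for Sulf2 and -1.85 for Hs3st5 under the block were therefore fixed in advance. The deviations of same-numbered libraries correlated at -0.254, 0.026 and 0.278, within the -0.403 to 0.414 of differently numbered ones. With 3 libraries in each group these values cannot decide whether same-numbered mice share more than a number. The block ended the call of Hbegf (limma adjusted p = 0.0666), as did equal totals (0.0714) and name style as a covariate (0.0989). The number of pathway genes called was 2 (Etv4 and Hbegf). It was also 2 with the replicate block, where Dusp6 (0.0447) was called in place of Hbegf. It was 1 with a filter at 50, where Etv4 was no longer tested, 1 with equal totals, 1 with name style as a covariate, 6 with DESeq2 and 4 with a weight per library (Areg and Chpf added), and 0 to 2 when 1 library was left out, 0 without KO replicate 1 or KO replicate 3. The alternatives for the pathway genes were added after the data were seen. By library name style 0 genes of the group passed under any alternative run. Depth limits the 8 genes that were not tested and the WT level of Sulf2, which rests on 11 to 23 reads.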
